A study of Mus musculus with 9 samples.

Results

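Hearts expressing a kinase-deficient form of phosphofructokinase 2 (PFK2), called GlycoLo, were compared with wild-type (WT) hearts. The comparison used 6 of the 9 arrays of the series, 3 GlycoLo and 3 WT, taken by their genotype labels, and the remaining 3 arrays were hearts with a phosphatase-deficient PFK2, called GlycoHi. All 9 hearts came from untreated male mice on the FVB background at 15 weeks of age, with 1 array for each of 3 mice per genotype. Hearts were snap-frozen, and total RNA was hybridised as biotin-labelled cRNA to an Affymetrix mouse genome array. The promoter that drives the transgene is not given in the sources used here, nor is the number of founder lines.

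PFK2 is an enzyme with a kinase and a phosphatase domain in 1 protein. The kinase makes fructose 2,6-bisphosphate, the strongest known activator of 6-phosphofructo-1-kinase and therefore of glycolysis, and the phosphatase removes it; a kinase-deficient form lowers this activator. The adult heart draws most of its energy from fatty acids and also burns glucose, lactate, ketone bodies and branched-chain amino acids. Many of the fatty acid genes are switched on by the nuclear receptor PPAR alpha when fatty acids are abundant. The comparison asks which transcripts of the heart differ when this glycolytic control point is set low.

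Values are log2 levels as the authors deposited them, so a difference of 1 is a doubling. They were tested with limma in 1 model over the 9 arrays, with Benjamini-Hochberg adjustment over 45037 probe sets, and an adjusted p under 0.05 made a call. A difference is followed by its standard error in that model, and a mean level by its SD (n = 3 mice). In whole-heart RNA, fewer cells of a type and less RNA per cell cannot be told apart. The correlation between any pair of the 6 arrays was 0.995 to 0.997, their medians lay between 4.76 and 4.80, and the first principal component (30.1% of the variance) placed the 3 GlycoLo arrays on one side and the 3 WT arrays on the other. Summed over 8 cardiomyocyte markers, the log2 level was 16.33 to 16.39 in WT and 16.32 to 16.36 in GlycoLo. RNA integrity, read as the gap between the 3′ and 5′ actin control probe sets, gave 0.95 ± 0.04 in WT and 0.90 ± 0.01 in GlycoLo.

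Pfkfb1, which encodes the liver isoform of PFK2, read 7.97, 7.74 and 7.95 in the WT hearts and 14.34, 14.37 and 14.37 in the GlycoLo hearts. All 3 GlycoLo values stood at rank 2 of the whole array, so the rise of 6.47 ± 0.07 (adjusted p = 4.79e-12) may be understated so close to the upper end of the scale. GlycoHi hearts averaged 14.42 ± 0.01, and the lines differed by -0.06 ± 0.07 (95% interval -0.21 to 0.10; adjusted p = 0.810). A transcript of the transgene and the endogenous one cannot be told apart on this probe set. Of the other PFK2 genes, Pfkfb3, the inducible isoform, read 5.13, 4.82 and 4.87 in WT and 5.43, 5.40 and 5.48 in GlycoLo without overlap, a difference of 0.50 ± 0.08 that was not called (adjusted p = 0.0733; GlycoHi 5.51 ± 0.01). Pfkfb2, the isoform best known from heart, differed by 0.32 ± 0.16 (95% interval -0.02 to 0.67; GlycoHi 5.36 ± 0.15) and Pfkfb4 by -0.01 ± 0.12 (95% interval -0.27 to 0.26; GlycoHi 5.56 ± 0.10). Tyr, which encodes the pigment enzyme tyrosinase, read 2.87, 3.21 and 3.23 in WT, 3.30, 3.28 and 3.10 in GlycoLo and 12.67, 12.99 and 12.68 in GlycoHi, so among the 9 arrays its high level was seen on those of GlycoHi. GlycoHi hearts therefore differed from GlycoLo hearts in Tyr as well as in the form of PFK2, and in each difference between the lines given here these cannot be told apart.

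Across the array, 38 of 45037 probe sets were called in GlycoLo against WT (0.0844%), 7 higher (0.0155%) and 31 lower (0.0688%). The 6 values of each of the 38 separated without overlap, as they did for 13.2% of all probe sets, 6.9% higher and 6.29% lower in GlycoLo. At an unadjusted p under 0.05, 4270 probe sets (9.48%) passed. Of the 38, 28 carried 1 gene symbol (0.142% of 19760 such probe sets), 1 carried both Acot1 and Acot2, and 9 are unnamed here. Of the 28, 7 rose and 21 fell. Those that rose were Pfkfb1, Myh7, Bex1, Fam101a, Casq1, Cdc34 and Pdlim7. Leaving out 1 array at a time gave 13 to 37 calls, and 13 of them without WT replicate 1 or without GlycoLo replicate 2. A fit to the 6 arrays alone, with fewer arrays to estimate the spread, called 15. A core of 10 genes kept the call without each of the 9 arrays: Pfkfb1, Fbp2, Fam101a, Bdh1, Sox6, Myh7, Fah, Cmtm6, Acot1 and Pcolce. GlycoLo differed from GlycoHi at 771 probe sets (1.71%), and GlycoHi from WT at 938 (2.08%).

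**Figure D1:**
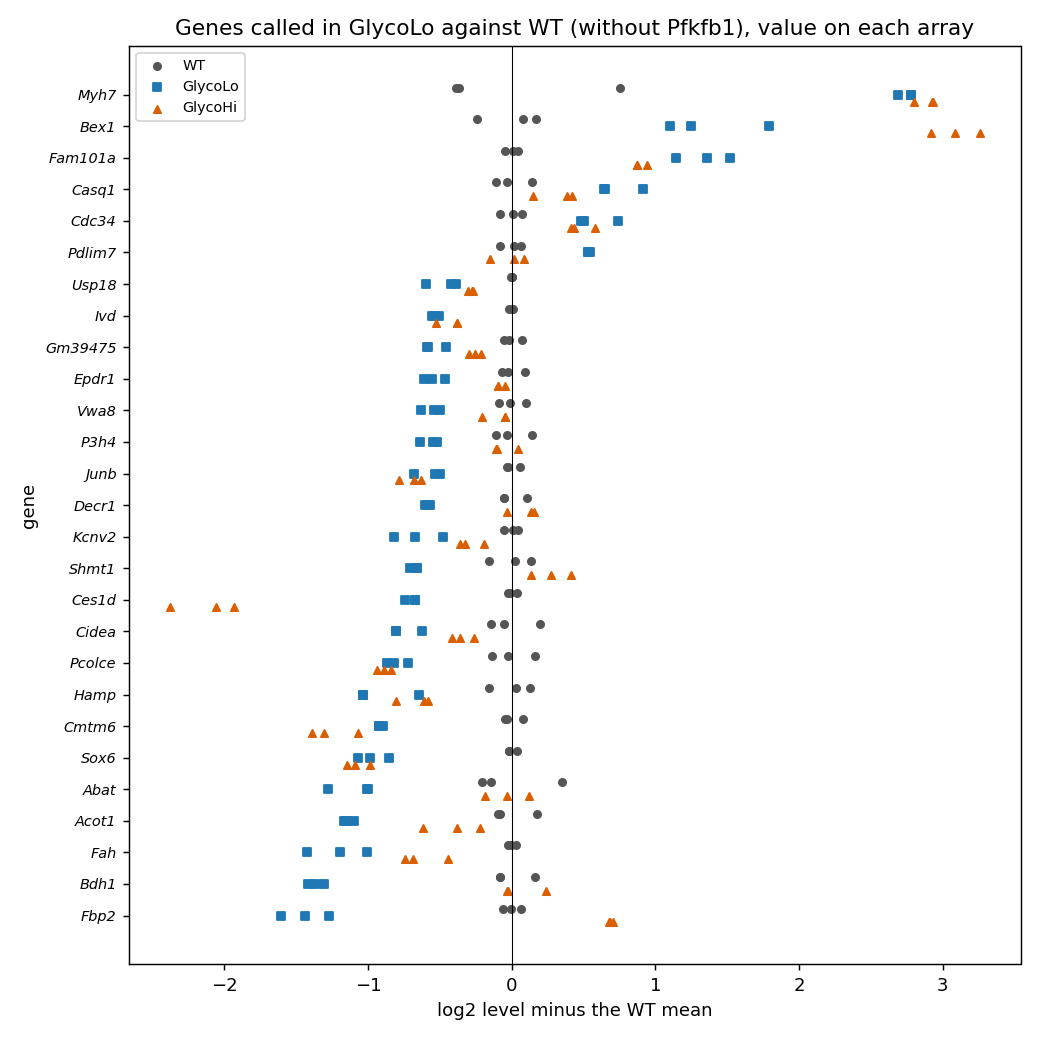
Level of each named gene called in GlycoLo against WT, other than Pfkfb1, on each of the 9 arrays, as the log2 value minus the mean of the 3 WT arrays (horizontal axis). Grey circles are WT, blue squares GlycoLo and orange triangles GlycoHi; genes are ordered by their difference, from Fbp2 (-1.44 ± 0.08) to Myh7 (2.75 ± 0.24), and GlycoLo and WT values do not overlap for any of them.

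Fbp2 encodes muscle fructose-1,6-bisphosphatase, which runs the phosphofructokinase step backwards. It read 7.48, 7.35 and 7.40 in WT and 6.14, 5.81 and 5.97 in GlycoLo, with the lowest WT heart above the highest GlycoLo heart. Fbp2 fell by 1.44 ± 0.08 on the log2 scale, a 2.71-fold lower level (adjusted p = 9.01e-05). The GlycoHi hearts stood above WT at 8.10, 8.12 and 8.09, a rise of 0.69 ± 0.08 (adjusted p = 0.00186). Of the 28 named genes, Fbp2 was the 1 gene called against WT in opposite directions in the transgenic lines, and GlycoLo minus GlycoHi was -2.13 ± 0.08 (adjusted p = 3.36e-07). The 250 bases before its start are shown because Fbp2 is the gene whose direction differed between the lines. They were taken from RefSeq (GRCm38.p6, chr13:62858401-62858650, minus strand, written 5′ to 3′ along the gene), with capitals marking a CACGTG E-box, the motif bound by MYC and by clock factors.
Fbp2 promoter: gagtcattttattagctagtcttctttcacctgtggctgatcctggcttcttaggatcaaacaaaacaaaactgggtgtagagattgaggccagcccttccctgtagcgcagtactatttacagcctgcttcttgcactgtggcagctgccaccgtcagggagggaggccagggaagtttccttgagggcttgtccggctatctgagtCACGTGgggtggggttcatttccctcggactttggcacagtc
The E-box began 42 bases before the start, and an AP-1 motif (TGACTCA, read on the other strand) began 47 bases before it and shared 2 bases with the E-box. Both strands were searched in the same 250 bases of 27025 genes, of which 6.86% held CACGTG and 5.16% held TGACTCA. Among 19 called genes with a promoter entry, 1 held CACGTG (Fbp2) and 2 held TGACTCA (Fbp2 and Hamp).

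No step of glycolysis was called. Of 21 measured glycolytic genes, 0 were called, 4 were higher without overlap (7.38% of all genes with 1 symbol were) and 0 lower, with a median difference of 0.02 against 0.01 over all genes with 1 symbol. Pgam1, a phosphoglycerate mutase, was nearest to a call at 8.69, 8.73 and 8.73 in WT and 9.12, 9.27 and 9.31 in GlycoLo, a difference of 0.52 ± 0.08 (adjusted p = 0.0568; GlycoHi 9.21 ± 0.13). The muscle form Pgam2 differed by 0.13 ± 0.06 and Tpi1, triosephosphate isomerase, by 0.17 ± 0.06, neither of them called (GlycoHi 12.52 ± 0.03 and 11.89 ± 0.05). Slc2a1, a basal glucose transporter, differed by -0.31 ± 0.10 (95% interval -0.53 to -0.08; GlycoHi 7.53 ± 0.03). In the TCA cycle, 0 of 20 genes were called (background 0.142%). Without overlap 1 was higher and 4 lower (background 7.38% and 6.3%), and the median was -0.03. Idh1, the cytosolic isocitrate dehydrogenase, had the smallest p there, with a difference of -0.41 ± 0.08 (adjusted p = 0.106; GlycoHi 8.26 ± 0.07). Among 38 subunits of the respiratory chain 0 were called, 8 were higher and 2 lower without overlap (background 7.38% and 6.3%), and the median was 0.03.

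Among the ketone and amino acid enzymes Bdh1, Fah, Abat, Ivd and Shmt1 fell. Bdh1, the mitochondrial 3-hydroxybutyrate dehydrogenase that interconverts the ketone bodies, read 8.94, 8.69 and 8.69 in WT and 7.41, 7.47 and 7.36 in GlycoLo. Bdh1 fell by 1.36 ± 0.10, a 2.57-fold lower level (adjusted p = 0.000238), whereas GlycoHi hearts, at 9.02, 8.74 and 8.75, overlapped WT, and the lines differed by -1.42 ± 0.10 (adjusted p = 3.8e-05). Oxct1, the succinyl-CoA transferase that starts ketone use, read 12.19, 12.14 and 12.15 in WT and 11.81, 11.83 and 11.82 in GlycoLo, a difference of -0.34 ± 0.06 that was not called (adjusted p = 0.0858; GlycoHi 11.96 ± 0.05). Of 10 ketone genes, 1 fell, 0 rose, and 4 were lower and 1 higher without overlap (background 6.3% and 7.38%), with a median of 0.01.

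Fah, the last enzyme of tyrosine breakdown, read 8.31, 8.25 and 8.27 in WT and 6.85, 7.09 and 7.27 in GlycoLo. It fell by 1.21 ± 0.11 (adjusted p = 0.00174) and was also lower than in GlycoHi, whose mean was 7.65 ± 0.16 (difference -0.59 ± 0.11, adjusted p = 0.0230). Abat, the mitochondrial GABA transaminase, read 7.50, 7.99 and 7.43 in WT, where replicate 2 was the highest, and 6.64, 6.36 and 6.64 in GlycoLo. Abat fell by 1.10 ± 0.14 (adjusted p = 0.0244), while GlycoHi averaged 7.61 ± 0.16, and the lines differed by -1.06 ± 0.14 (adjusted p = 0.00370). Ivd, isovaleryl-CoA dehydrogenase of leucine breakdown, read 9.96, 9.96 and 9.94 in WT and 9.42, 9.40 and 9.45 in GlycoLo. Ivd fell by 0.53 ± 0.06 (adjusted p = 0.0183; GlycoHi 9.52 ± 0.08; line difference -0.10 ± 0.06, adjusted p = 0.552). Shmt1, the cytosolic serine hydroxymethyltransferase of one-carbon metabolism, read 5.45, 5.34 and 5.16 in WT and 4.62, 4.66 and 4.66 in GlycoLo. Shmt1 fell by 0.67 ± 0.09 (adjusted p = 0.0279) with GlycoHi at 5.59 ± 0.14 and a line difference of -0.95 ± 0.09 (adjusted p = 0.000402). Without 1 of several single arrays Abat, Ivd and Shmt1 lost the call, at adjusted p of up to 0.114, 0.106 and 0.118; Ivd lost it without any 1 of the 6 WT and GlycoLo arrays, Abat without WT replicate 1 or 3, any GlycoLo array or GlycoHi replicate 3, and Shmt1 without WT replicate 1 or 2, any GlycoLo array or GlycoHi replicate 1.

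Of 21 genes of branched-chain amino acid breakdown 1 fell (Ivd), 0 rose, 10 were lower and 0 higher without overlap (background 6.3% and 7.38%), and the median was -0.11. Ppm1k, the phosphatase that activates the branched-chain keto acid dehydrogenase, differed by -0.46 ± 0.09 (adjusted p = 0.113; GlycoHi 7.95 ± 0.10), and Dbt, the E2 subunit of that complex, by -0.45 ± 0.09 (adjusted p = 0.144; GlycoHi 8.15 ± 0.20). Over 27 other amino acid genes 2 fell (Fah and Abat), 0 rose, 9 were lower and 3 higher without overlap, and the median was -0.10. Against GlycoHi, 0 of the 21 branched-chain genes were called in either direction, so the test between the lines did not separate them there. The serine and one-carbon list differed: 1 of 19 genes fell against WT (Shmt1), while against GlycoHi 6 of 19 were lower (Phgdh, Psat1, Shmt1, Mthfd2, Aldh1l2 and Cth) and 1 was higher (Mtr), beside 0.957% and 0.755% of all probe sets. Within the response list of ATF4, a factor that switches on amino acid synthesis under stress, 0 of 22 were called against WT and 8 of 22 were lower than in GlycoHi (Atf5, Ddit3, Trib3, Chac1, Asns, Gdf15, Cebpg and Slc3a2).

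Among genes of fatty acid handling Acot1, Decr1, Cidea and Ces1d fell and none rose. Acot1, a cytosolic thioesterase that frees fatty acids from acyl-CoA, read 7.02, 6.75 and 6.76 in WT and 5.69, 5.68 and 5.74 in GlycoLo. Acot1 fell by 1.14 ± 0.11, a 2.2-fold lower level (adjusted p = 0.00210); GlycoHi hearts lay between at 6.46, 6.62 and 6.22, and the lines differed by -0.73 ± 0.11 (adjusted p = 0.00580). The probe set shared by Acot1 and its mitochondrial neighbour Acot2 read 7.81, 7.77 and 7.98 in WT and 6.75, 7.07 and 7.04 in GlycoLo. It fell by 0.90 ± 0.11 (adjusted p = 0.0200). Acot2 on its own probe set read 9.60, 9.64 and 9.93 and 8.75, 9.14 and 8.78, a difference of -0.83 ± 0.15 that was not called (adjusted p = 0.0903), with GlycoHi at 10.03 ± 0.27 and a line difference of -1.14 ± 0.15 (adjusted p = 0.00284). The Acot genes are close copies, so a probe set of one may read some of the signal of another. The 250 bases before Acot1, the fatty acid gene with the smallest p, are shown because Acot1 is known as a PPAR alpha target (RefSeq GRCm38.p6, chr12:84009252-84009501, plus strand, no capitals because no motif searched was found).
Acot1 promoter: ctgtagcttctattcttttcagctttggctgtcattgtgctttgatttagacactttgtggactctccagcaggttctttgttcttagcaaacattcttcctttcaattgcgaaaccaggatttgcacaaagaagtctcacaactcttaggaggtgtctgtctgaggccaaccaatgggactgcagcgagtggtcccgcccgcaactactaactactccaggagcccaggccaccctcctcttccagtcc
A PPAR response element, the direct repeat of AGGTCA with 1 base between the copies, was found in 0 of the 19 called promoters and in 0.0407% of 27025, and the ERR element AAGGTCA in 2 of 19 (Pfkfb1 and Sox6) and 4.7%. An absent match says only that these letters are not in this window.

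Decr1, a reductase needed to oxidise unsaturated fatty acids in mitochondria, read 9.80, 9.64 and 9.64 in WT and 9.09, 9.12 and 9.11 in GlycoLo. Decr1 fell by 0.58 ± 0.07 (adjusted p = 0.0200), GlycoHi overlapped WT at 9.85, 9.66 and 9.83, and the lines differed by -0.67 ± 0.07 (adjusted p = 0.00102). Cidea, a lipid droplet protein, read 8.41, 8.32 and 8.66 in WT and 7.66, 7.66 and 7.84 in GlycoLo. Cidea fell by 0.74 ± 0.10 (adjusted p = 0.0200; GlycoHi 8.12 ± 0.07; line difference -0.40 ± 0.10, adjusted p = 0.0720). Ces1d, a carboxylesterase that hydrolyses stored triglyceride, read 9.40, 9.35 and 9.33 in WT and 8.69, 8.69 and 8.62 in GlycoLo. Ces1d fell by 0.70 ± 0.10 (adjusted p = 0.0393), and GlycoHi stood lower still, at 6.98, 7.30 and 7.43, with GlycoLo above it by 1.43 ± 0.10 (adjusted p = 4.58e-05). Decr1 lost its call without any 1 of the 6 arrays compared (adjusted p up to 0.106), Cidea without WT replicate 1 or 3 or any GlycoLo array (up to 0.114), and Ces1d without any of the 6 or GlycoHi replicate 2 (up to 0.179).

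In the list of 28 fatty acid oxidation genes 1 fell (Decr1), 0 rose, 17 were lower and 0 higher without overlap (background 6.3% and 7.38%), and the median was -0.17. By WT level the median member stood at percentile 95.6 of all probe sets, and the background was not matched for level. Cpt2, which rebuilds acyl-CoA inside the mitochondrion, read 11.18, 11.04 and 11.05 in WT and 10.65, 10.69 and 10.75 in GlycoLo, a difference of -0.39 ± 0.07 (adjusted p = 0.0858; GlycoHi 11.02 ± 0.07). Slc25a20, the carrier that brings acylcarnitines across the inner membrane, differed by -0.42 ± 0.08 (adjusted p = 0.106; GlycoHi 9.67 ± 0.09). Cpt2 and Slc25a20 did not pass the threshold. A variance that follows the level of each probe set was the alternative with the most calls, 256 against 38. Under it 8 of the 28 were called, all lower, Cpt2, Slc25a20, Hadha, Decr1, Eci1, Eci2 and Ech1 among them. Beside them, 0.395% of all probe sets were called lower there. Other lists gained calls under it too, with 6 of 29 immediate early genes and 6 of 25 lipid droplet and lipolysis genes lower. Against GlycoHi 4 of the 28 were called lower (Cpt2, Slc25a20, Acad11 and Decr1) and 0 higher, beside 0.957% and 0.755% of all probe sets.

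Of 28 PPAR alpha targets, a list that shares 9 genes with the oxidation list, 4 fell (Acot1, Decr1, Cidea and Ces1d), 0 rose, 18 were lower and 0 higher without overlap, and the median was -0.35. Over all genes with 1 symbol, 0.142% were called, 6.3% were lower and 7.38% higher without overlap, and the median was 0.01. Among those not called, Pdk4, the kinase that shuts pyruvate dehydrogenase, read 11.99, 11.83 and 11.51 in WT and 10.29, 11.83 and 10.40 in GlycoLo. Its GlycoLo replicate 2 lay within the WT range and the other 2 did not (difference -0.94 ± 0.33, adjusted p = 0.388; GlycoHi 11.90 ± 0.16). For Ucp3, a mitochondrial carrier, replicate 2 was also the highest GlycoLo array, but its value lay below the lowest WT value. Ucp3 read 7.24, 6.88 and 6.82 in WT and 5.997, 6.75 and 5.85 in GlycoLo (difference -0.78 ± 0.23, adjusted p = 0.289, GlycoHi 6.90 ± 0.32). The receptor itself, Ppara, differed by -0.23 ± 0.11 (95% interval -0.49 to 0.02; GlycoHi 7.38 ± 0.07), and of 19 PPAR and ERR factors and partners 0 were called and the median was 0.05. Over 25 lipid droplet and lipolysis genes 2 fell (Cidea and Ces1d), 0 rose, 11 were lower and 2 higher without overlap, with a median of -0.18; of 13 genes of fatty acid uptake and activation 0 were called, 6 were lower and 1 higher without overlap, with a median of -0.22. Gpam, which starts triglyceride synthesis, differed by -0.44 ± 0.09 against WT (adjusted p = 0.144) and by -0.67 ± 0.09 against GlycoHi (adjusted p = 0.00394).

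Markers of fat cells did not all move in 1 direction. Of 5 white adipocyte markers, 3 had a lower and 2 a higher mean in GlycoLo, and 0 were called. Of 4 brown adipocyte markers, 3 had a lower and 1 a higher mean, and Cidea was called. Summed over 5 white adipocyte markers the log2 level was 9.03 to 9.89 in WT and 8.61 to 9.04 in GlycoLo, and over 4 brown adipocyte markers, Cidea among them, 9.93 to 10.79 and 9.75 to 10.16. WT replicate 3 was the high array in both. Adipoq, an adipocyte hormone, read 5.63, 6.20 and 7.78 in WT and 6.32, 4.77 and 6.16 in GlycoLo, and Ucp1, the brown fat uncoupler, 3.53, 5.29 and 6.27 and 4.21, 3.73 and 4.74; neither was called, and both groups overlapped (GlycoHi 4.89 ± 0.63 and 3.51 ± 0.11). Without WT replicate 3 the difference of Cidea was -0.65 against -0.74 ± 0.10 with it, and its call was lost. That of Acot1 was -1.18 without this array. Leaving out 1 array does not measure fat in the others, and Ucp1 in WT replicate 2 (5.29) also lay above each GlycoLo value. The part of fat cells in the lower levels of the lipid genes, Cidea and Acot1 among them, was not tested.

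**Figure D2:**
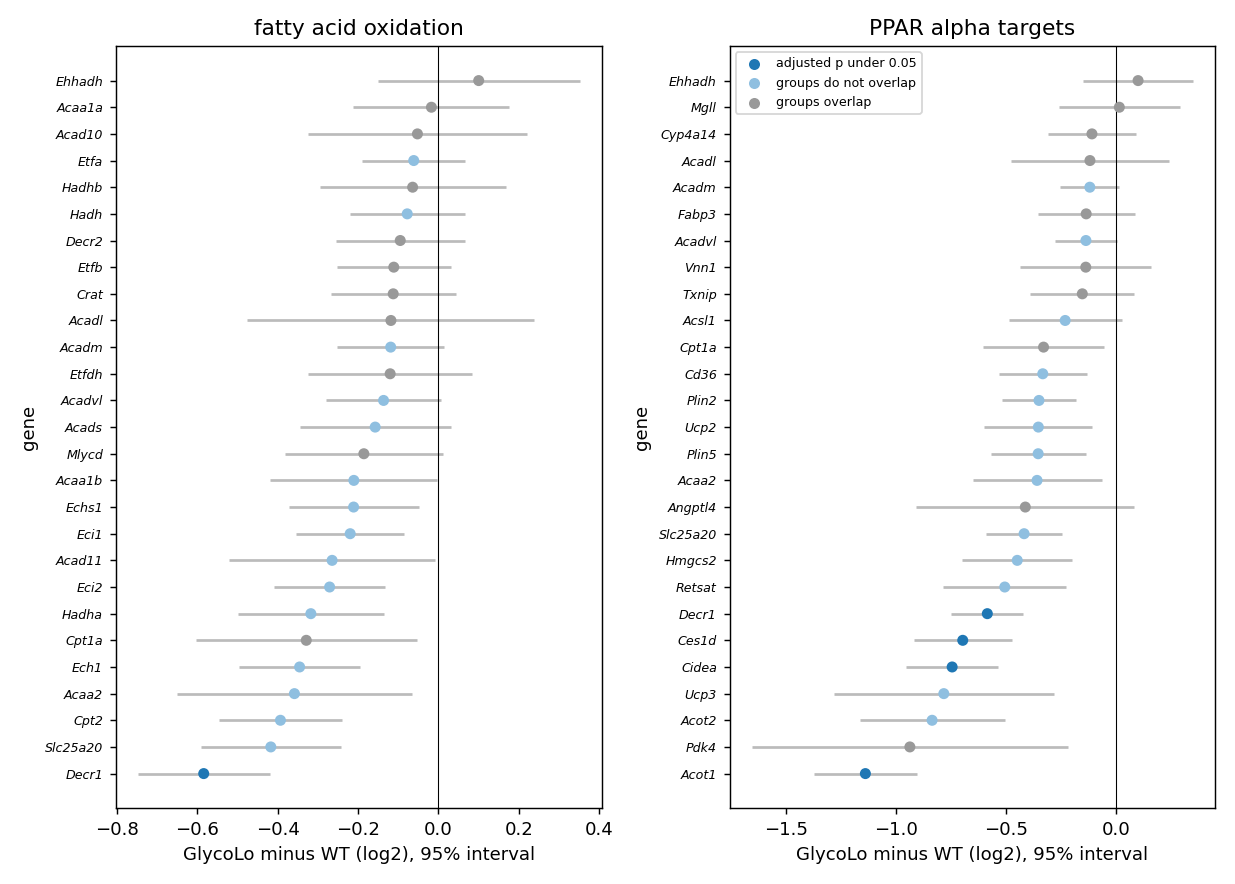
GlycoLo minus WT difference (log2, horizontal axis) of the measured members reported here of the fatty acid oxidation list (left) and of the PPAR alpha target list (right), with the 95% interval of the model as a line. Dark blue marks genes called at an adjusted p under 0.05, light blue genes whose 3 GlycoLo and 3 WT values do not overlap and grey the rest; the points lie below 0 except Ehhadh on the left and Ehhadh and Mgll on the right, and the genes called are Decr1 on the left and Acot1, Cidea, Ces1d and Decr1 on the right.

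The contractile genes changed at few places, and by the largest amount of any gene but Pfkfb1. Myh7, the slow or beta myosin heavy chain that the fetal and stressed mouse heart uses, read 10.64, 11.77 and 10.65 in WT, where replicate 2 stood above the other 2, and 13.80, 13.71 and 13.80 in GlycoLo. Myh7 rose by 2.75 ± 0.24, a 6.72-fold higher level (adjusted p = 0.00155), and GlycoHi hearts stood at 13.82, 13.95 and 13.95 (line difference -0.14 ± 0.24, 95% interval -0.67 to 0.39; adjusted p = 0.863). Sox6, a transcription factor that represses slow fibre genes in mouse skeletal muscle, read 6.02, 6.08 and 6.02 in WT and 5.18, 4.97 and 5.05 in GlycoLo. Sox6 fell by 0.97 ± 0.07 (adjusted p = 0.000501), with GlycoHi at 4.97 ± 0.08 and a line difference of 0.10 ± 0.07 (95% interval -0.06 to 0.27). Myh6, the fast or alpha myosin heavy chain, read 10.22, 10.37 and 10.16 in WT and 10.11, 10.04 and 9.90 in GlycoLo, a difference of -0.23 ± 0.10 that was not called (adjusted p = 0.495), but GlycoLo stood 0.47 ± 0.10 above GlycoHi (adjusted p = 0.0421). The 1 listed probe set of Myh6 read below that of Myh7 in WT. Levels of different probe sets are not amounts of transcript that can be compared. Of 27 sarcomere genes 1 rose (Myh7), 1 fell (Sox6), and 5 were higher and 5 lower without overlap (background 7.38% and 6.3%, with 0.142% called), with a median of 0.02. Nppa, the atrial natriuretic peptide used as a marker of cardiac stress, read 13.50, 13.91 and 13.84 in WT and 13.69, 13.70 and 13.64 in GlycoLo (difference -0.07 ± 0.15, 95% interval -0.40 to 0.25; GlycoHi 13.35 ± 0.32), and of 23 factors secreted by the heart 0 were called.

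Casq1, the calcium store protein of skeletal muscle, read 9.09, 8.91 and 8.84 in WT and 9.59, 9.86 and 9.59 in GlycoLo. Casq1 rose by 0.73 ± 0.10 (adjusted p = 0.0384; GlycoHi 9.26 ± 0.15; line difference 0.42 ± 0.10, adjusted p = 0.0877). Pdlim7, a PDZ and LIM domain protein of the Z-disc, read 8.02, 7.97 and 7.88 in WT and 8.50, 8.49 and 8.49 in GlycoLo. Pdlim7 rose by 0.54 ± 0.07 (adjusted p = 0.0333) and stood apart from GlycoHi, which overlapped WT at 7.81, 8.05 and 7.98 (line difference 0.55 ± 0.07, adjusted p = 0.00376). Of 25 Z-disc and stretch genes 1 rose, 0 fell, 7 were higher and 3 lower without overlap (background 7.38% and 6.3%, with 0.142% called), with a median of 0.05, and of 24 calcium genes 1 rose (Casq1), 0 fell, 2 were higher and 1 lower without overlap. Kcnv2, a silent subunit that tunes potassium channels, read 7.34, 7.24 and 7.31 in WT and 6.48, 6.63 and 6.82 in GlycoLo. Kcnv2 fell by 0.66 ± 0.09 (adjusted p = 0.0299; GlycoHi 7.004 ± 0.09), 1 of 21 potassium channel genes with 0 that rose. Cacna1g, a T-type calcium channel of pacemaker cells, differed by 0.52 ± 0.10 (adjusted p = 0.106; GlycoHi 5.94 ± 0.15). Casq1, Pdlim7 and Kcnv2 lost their calls without single arrays, at adjusted p of up to 0.150, 0.133 and 0.120: Pdlim7 without any of the 6 compared or GlycoHi replicate 3, Casq1 without any of the 6 or GlycoHi replicate 2 or 3, and Kcnv2 without GlycoLo replicate 1 or 2, GlycoHi replicate 1 or any WT array.

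The remaining called genes did not share a pathway list with each other. Bex1 was the 1 call among 7 Bex family genes, Cdc34 among 30 cell cycle genes and Hamp among 19 hepcidin and iron genes (background 0.142%). Fam101a, a refilin that binds the actin cross-linker filamin, read 5.94, 5.99 and 6.03 in WT and 7.35, 7.51 and 7.13 in GlycoLo. Fam101a rose by 1.34 ± 0.09 (adjusted p = 0.000238), with GlycoHi in between at 6.88 ± 0.04 and a line difference of 0.45 ± 0.09 (adjusted p = 0.0333). Bex1, a small adaptor protein of neurons that also appears in failing heart muscle, read 7.30, 7.21 and 6.89 in WT and 8.92, 8.38 and 8.23 in GlycoLo. Bex1 rose by 1.38 ± 0.17 (adjusted p = 0.0200) and was higher still in GlycoHi at 10.39, 10.05 and 10.22 (line difference -1.71 ± 0.17, adjusted p = 0.000491). Cdc34, a ubiquitin-conjugating enzyme, read 9.82, 9.76 and 9.68 in WT and 10.26, 10.24 and 10.49 in GlycoLo, a rise of 0.58 ± 0.09 (adjusted p = 0.0464; GlycoHi 10.23 ± 0.09). Bex1 lost the call without any WT array or GlycoLo replicate 2 (adjusted p up to 0.0977), and Cdc34 without each of the 9 arrays (up to 0.162).

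Among the falls, Cmtm6, a membrane protein known in human cells for keeping PD-L1 at the surface, read 7.44, 7.33 and 7.32 in WT and 6.44, 6.44 and 6.46 in GlycoLo. Cmtm6 fell by 0.91 ± 0.08 (adjusted p = 0.00206; GlycoHi 6.11 ± 0.16; line difference 0.34 ± 0.08, adjusted p = 0.0822). Pcolce, which speeds the trimming of procollagen, read 9.95, 9.66 and 9.76 in WT and 9.07, 8.97 and 8.92 in GlycoLo. Pcolce fell by 0.80 ± 0.08 (adjusted p = 0.00522; GlycoHi 8.90 ± 0.05), and P3h4, part of the complex that modifies collagen in the endoplasmic reticulum, read 7.94, 7.68 and 7.76 and 7.24, 7.16 and 7.28. P3h4 fell by 0.57 ± 0.08 (adjusted p = 0.0384) and differed from GlycoHi, at 7.74 ± 0.09, by -0.51 ± 0.08 (adjusted p = 0.00996). The collagen and matrix genes themselves were not called: 0 of 30, with 6 lower and 0 higher without overlap (background 6.3% and 7.38%) and a median of -0.09. Hamp, which encodes the iron hormone hepcidin, read 8.31, 8.59 and 8.49 in WT and 7.82, 7.43 and 7.43 in GlycoLo, a fall of 0.90 ± 0.12 on the log2 scale (adjusted p = 0.0227; GlycoHi 7.80 ± 0.12). Vwa8, a mitochondrial ATPase, read 8.14, 8.03 and 7.96 in WT and 7.42, 7.51 and 7.55 in GlycoLo. Vwa8 fell by 0.55 ± 0.08 (adjusted p = 0.0307; GlycoHi 7.95 ± 0.09; line difference -0.45 ± 0.08, adjusted p = 0.0141). Epdr1, a lysosomal ependymin relative, read 6.29, 6.46 and 6.33 in WT and 5.90, 5.80 and 5.75 in GlycoLo and fell by 0.54 ± 0.07 (adjusted p = 0.0200; GlycoHi 6.28 ± 0.03; line difference -0.46 ± 0.07, adjusted p = 0.00699). The predicted gene Gm39475 read 5.62, 5.53 and 5.49 in WT and 5.09, 4.96 and 4.97 in GlycoLo and fell by 0.54 ± 0.07 (adjusted p = 0.0200; GlycoHi 5.29 ± 0.04). Fam101a, Sox6 and Epdr1 were read on probe sets with an x suffix, which Affymetrix gives to designs open to cross-hybridisation. P3h4, Hamp, Vwa8, Epdr1 and Gm39475 each lost the call without 5 or more of the 9 single arrays, at adjusted p of up to 0.147, 0.119, 0.119, 0.114 and 0.106, WT replicate 1 and GlycoLo replicate 2 among the arrays for each.

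**Figure D3:**
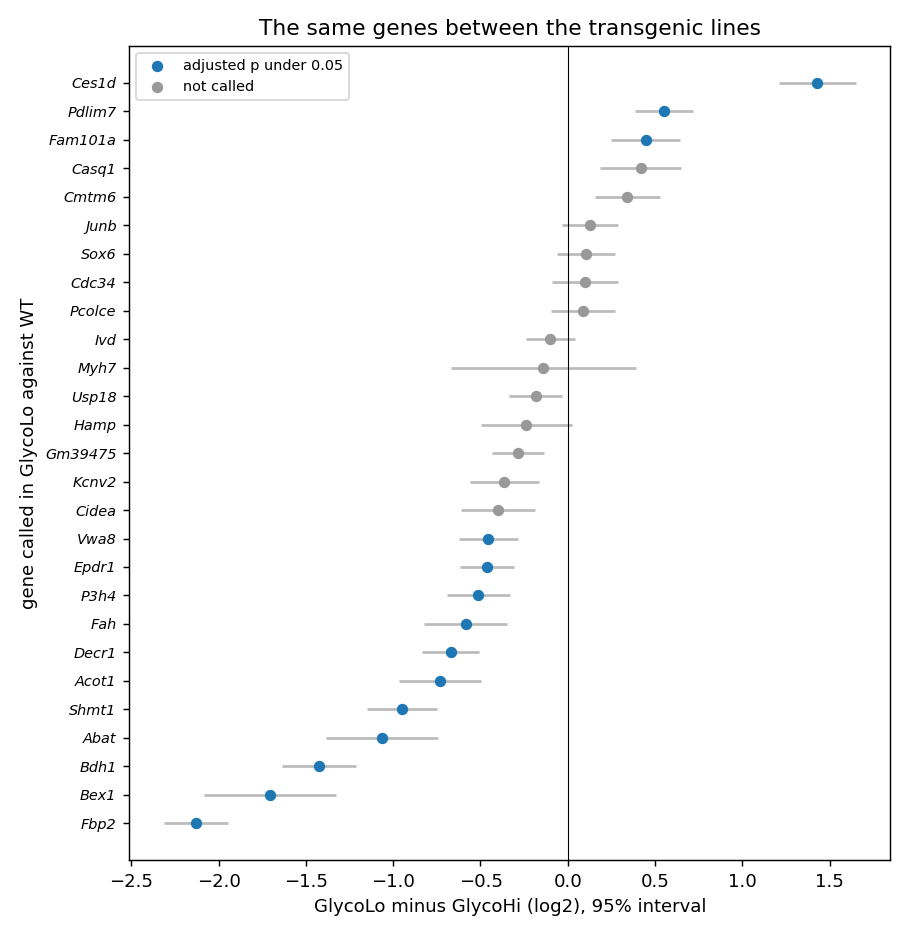
GlycoLo minus GlycoHi difference (log2, horizontal axis) of the named genes called in GlycoLo against WT, other than Pfkfb1, with the 95% interval of the model as a line. Blue points are the 14 genes called between the lines at an adjusted p under 0.05, from Fbp2 (-2.13 ± 0.08) to Ces1d (1.43 ± 0.10), and grey points the rest, among them Myh7 (-0.14 ± 0.24) and Sox6 (0.10 ± 0.07).

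The test between the lines called 14 of the 28 named genes and not the other 14, beside 1.71% of all probe sets called. The 28 were picked on the same GlycoLo arrays that this test uses, so a larger share was favoured in advance. Called lower in GlycoLo than in GlycoHi were metabolic enzymes (Fbp2, Bdh1, Abat, Shmt1, Acot1, Decr1 and Fah), Bex1, Vwa8, P3h4 and Epdr1; called higher were Ces1d, Pdlim7 and Fam101a. Both lines share the WT arrays, so their differences from WT are not independent. Against WT, GlycoHi was called in the same direction for 13 of the 28, in the opposite direction for Fbp2, and not called for 14. Over all probe sets 2.08% were called in GlycoHi against WT.

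Junb, an immediate early gene that codes for a subunit of AP-1, read 6.54, 6.46 and 6.44 in WT and 5.94, 5.80 and 5.98 in GlycoLo. Junb fell by 0.57 ± 0.07 (adjusted p = 0.0200; GlycoHi 5.78 ± 0.08; line difference 0.13 ± 0.07, adjusted p = 0.503), and it lost the call without any 1 of the 6 arrays compared (adjusted p up to 0.106). Of 29 immediate early genes 1 fell, 0 rose, 13 were lower and 2 higher without overlap (background 6.3% and 7.38%), and the median was -0.29. Fos, the partner of the Jun proteins, read 8.46, 9.38 and 8.80 in WT and 8.17, 7.63 and 7.94 in GlycoLo, a difference of -0.96 ± 0.25 that was not called (adjusted p = 0.221). GlycoHi read 6.24, 5.96 and 6.76, lower than GlycoLo, whose level was above it by 1.59 ± 0.25 (adjusted p = 0.00841).

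The inducible chaperones showed wide gaps with wide spread. Hspa1b, an inducible HSP70, read 10.19, 11.50 and 11.03 in WT and 8.60, 8.27 and 8.68 in GlycoLo, a difference of -2.39 ± 0.61 that was not called (adjusted p = 0.219), and GlycoHi spanned 10.18, 7.06 and 8.69. Its near-identical copy Hspa1a, which can share signal with it, differed by -1.87 ± 0.50 (adjusted p = 0.253; GlycoHi 8.24 ± 1.18). Hspa8, the constitutive HSP70, read 7.27, 7.79 and 7.26 in WT and 6.10, 6.01 and 6.52 in GlycoLo, a difference of -1.23 ± 0.22 (adjusted p = 0.0858; GlycoHi 6.34 ± 0.42). Dnajb1, the HSP40 partner, differed by -0.78 ± 0.22 (adjusted p = 0.268; GlycoHi 9.22 ± 0.42). WT replicate 2 was the highest of the 3 WT arrays for each of Hspa1b, Hspa1a, Hspa8, Dnajb1 and Fos. The 1 listed probe set of Hspa8 had a WT mean of 7.44, below the 10.90 of Hspa1b, and may be a dim one. Of 31 heat shock and chaperone genes 0 were called, 9 were lower and 1 higher without overlap (background 6.3% and 7.38%), and the median was -0.08.

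Clock genes had 0 calls among 20, with 7 lower and 4 higher without overlap (background 6.3% and 7.38%) and a median of -0.19. The time of day of sampling is not given in the sources used here, so its part in these levels was not tested. Ciart, a repressor within the clock, read 7.65, 7.34 and 7.71 in WT and 6.54, 6.18 and 5.96 in GlycoLo, a difference of -1.34 ± 0.21 (adjusted p = 0.0583), and was lower than in GlycoHi by a called -1.05 ± 0.21 (adjusted p = 0.0325; GlycoHi 7.28 ± 0.45). Per2, a clock repressor, differed by -0.79 ± 0.25 and Dbp, a clock output factor, by -0.62 ± 0.19, while Arntl, the activator that runs in antiphase to them, differed by 0.65 ± 0.19; none of these was called (adjusted p = 0.348, 0.333 and 0.294; GlycoHi 7.12 ± 0.43, 10.71 ± 0.28 and 5.22 ± 0.31).

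**Figure D4:**
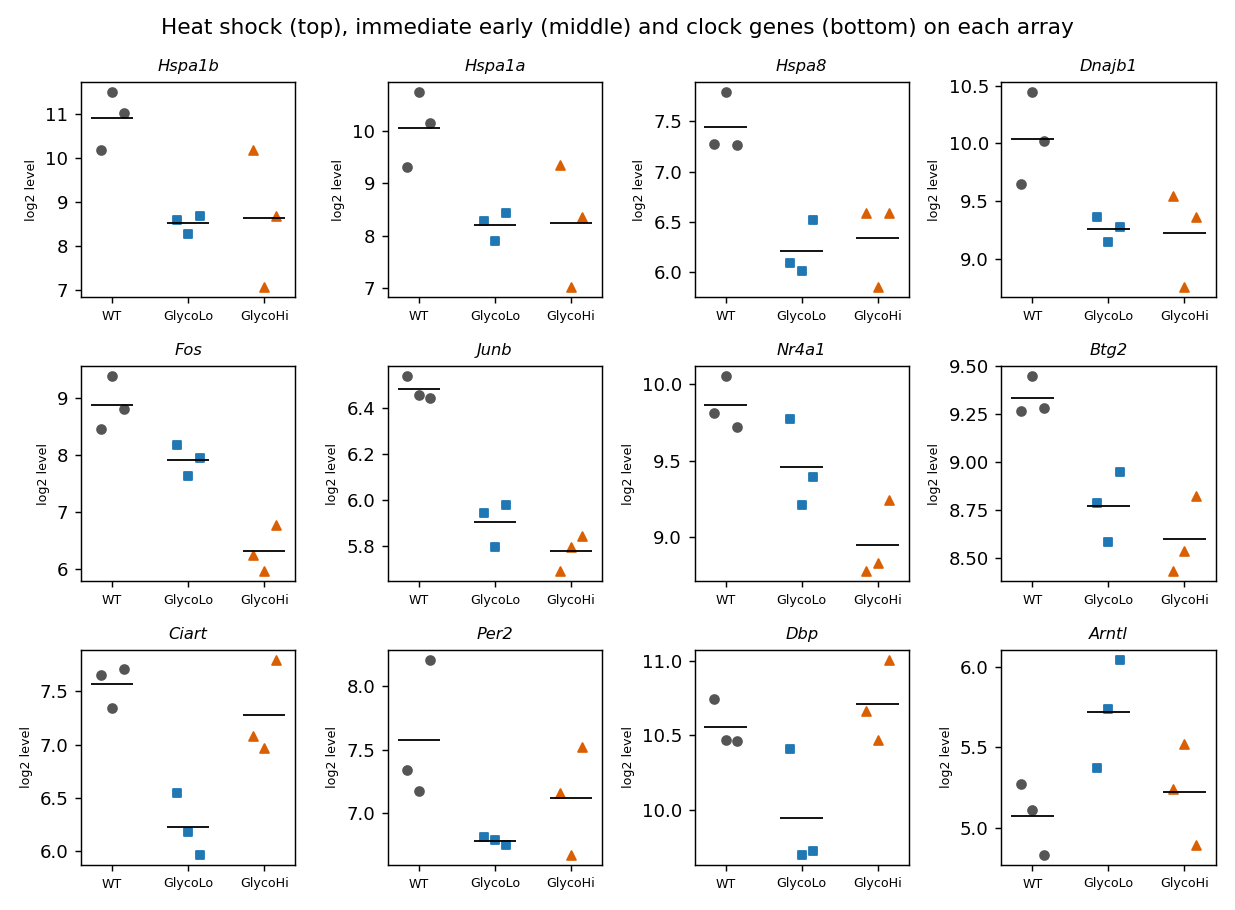
Log2 level (vertical axes, each with its own range) of 4 heat shock genes (top row), 4 immediate early genes (middle row) and 4 clock genes (bottom row) on the 3 arrays of each genotype, with the group mean as a bar. WT lies above GlycoLo for Hspa1b, Hspa1a, Hspa8, Dnajb1, Fos, Junb, Btg2, Ciart, Per2 and Dbp, the order is turned for Arntl, and Nr4a1 overlaps.

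Usp18, which removes the interferon-induced tag ISG15 and restrains interferon signalling, read 5.06, 5.05 and 5.06 in WT and 4.46, 4.63 and 4.67 in GlycoLo. Usp18 fell by 0.47 ± 0.07 (adjusted p = 0.0407; GlycoHi 4.77 ± 0.02), a call that was lost without each of the 9 arrays (adjusted p up to 0.143). Of 26 interferon response genes 1 fell, 0 rose, 7 were lower and 0 higher without overlap (background 6.3% and 7.38%), and the median was -0.09; Rsad2, an antiviral enzyme, differed by -0.64 ± 0.12 (adjusted p = 0.114; GlycoHi 5.51 ± 0.18) and Ifi27l2a by -0.75 ± 0.15 (adjusted p = 0.118; GlycoHi 8.38 ± 0.19). Of 7 macrophage markers 0 were called (smallest adjusted p = 0.271), 4 were lower and 0 higher without overlap, and their summed log2 level was 11.36 to 11.40 in WT and 11.12 to 11.22 in GlycoLo. Csf1r, the receptor that defines macrophages, read 10.32, 10.32 and 10.34 in WT and 10.06, 10.06 and 10.03 in GlycoLo, a difference of -0.28 ± 0.08 (adjusted p = 0.271; GlycoHi 10.20 ± 0.15). Summed levels were also lower without overlap for smooth muscle and pericyte markers (11.74 to 11.76 in WT, 11.55 to 11.66 in GlycoLo), for erythroid markers (8.11 to 8.30 and 7.21 to 7.999) and for epicardial markers (7.52 to 8.08 and 7.31 to 7.48). The ranges of the endothelial, fibroblast, atrial, lymphocyte, neutrophil, glial and fast skeletal muscle markers overlapped. The part of these cell types in the falls of Usp18, Pcolce and the matrix genes was not tested.

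Beyond the threshold, 58 probe sets had an adjusted p from 0.05 to 0.1, 44 of them with 1 symbol, 17 higher and 27 lower. Kcnt2, a sodium-activated potassium channel, read 6.17, 6.29 and 6.12 in WT and 5.49, 5.31 and 4.64 in GlycoLo, a difference of -1.05 ± 0.18 (adjusted p = 0.0858), with a called line difference of -0.91 ± 0.18 (adjusted p = 0.0330; GlycoHi 6.06 ± 0.18). Amy1, an amylase, differed by -0.83 ± 0.14 against WT (adjusted p = 0.0803) and by -1.06 ± 0.14 against GlycoHi (adjusted p = 0.00309; GlycoHi 6.73 ± 0.15). Tmprss13, a membrane serine protease, differed by 1.27 ± 0.21 (adjusted p = 0.0787; GlycoHi 6.02 ± 0.42), Spsb4, a SOCS box adaptor of ubiquitin ligases, by 0.84 ± 0.13 (adjusted p = 0.0584; GlycoHi 6.25 ± 0.15) and Gigyf2, a translational repressor, by 0.72 ± 0.12 (adjusted p = 0.0674; GlycoHi 4.35 ± 0.16). Dpm1, which makes the mannose donor for glycosylation, differed by -0.74 ± 0.11 (adjusted p = 0.0553; GlycoHi 5.69 ± 0.25), and Abhd1, a hydrolase-fold protein, by -0.76 ± 0.13 (adjusted p = 0.0858; GlycoHi 7.86 ± 0.12).

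**Figure D5:**
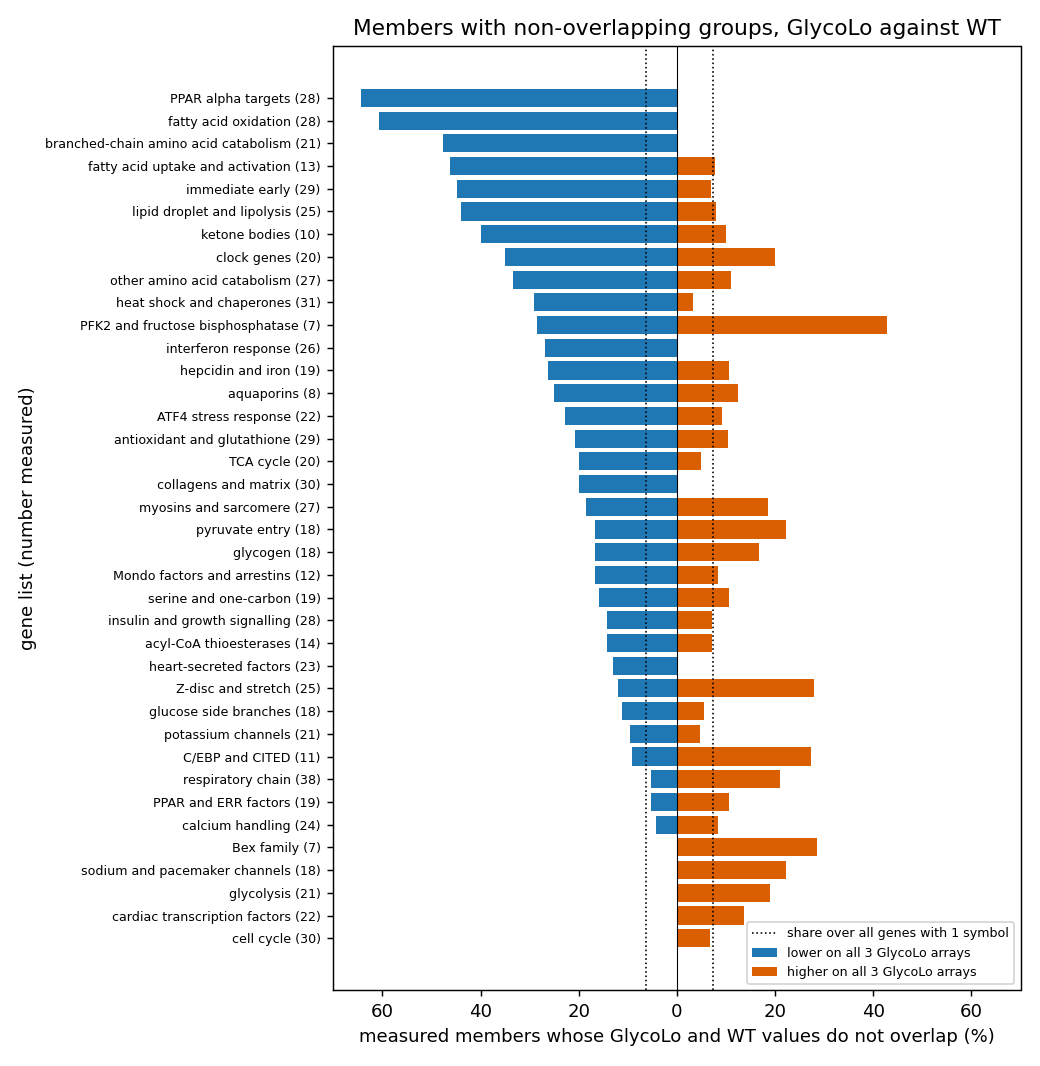
Share of the measured members of each of 38 pathway lists whose 3 GlycoLo and 3 WT values do not overlap (horizontal axis, percent), lower in GlycoLo to the left in blue and higher to the right in orange, with the number measured in brackets. Dotted lines mark the share over all genes with 1 symbol, 6.3% lower and 7.38% higher; the PPAR alpha targets (18 of 28) and fatty acid oxidation (17 of 28) have the longest blue bars, and the longest orange bars belong to PFK2 and fructose bisphosphatase (7 measured) and the Bex family (7 measured).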

How the data were processed

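The authors deposited log2 values for 45101 probe sets, made with RMA (robust multiarray average) and limma per the submitters' processing notes; the sources used here give no background setting, scaling or genome build. The 64 control probe sets were left out, and gene symbols came from a deposited table that names 1 symbol for 19760 of the 45037 tested, each on 1 probe set, which for some genes is a dim one. The test was limma's moderated test (version 3.58.1, R 4.3.3) on 1 linear model over 9 arrays, with 6 degrees of freedom from the residuals and 4.66 from the empirical Bayes prior. An exact permutation test of 3 against 3 cannot go below p = 0.1.

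The comparison, the 38 pathway lists, the 14 cell type lists and the tests were chosen with earlier results of these data known; 823 of 849 list symbols were measured. Genes were named by rule: every called gene with 1 symbol, the Pfkfb genes and Tyr, up to 4 members of each list with the smallest p, up to 10 genes with an adjusted p of 0.05 to 0.1 and defining cell type markers. Some genes that the rule names are not reported here singly, though the counts and medians of their lists include them. Pdk4, Ucp3, Ppara, Fos, Per2 and Dbp, Gpam's line difference and the genes named beside counts between the lines were chosen after their values were seen. Groups that do not overlap have all 3 values of one above all 3 of the other. The background shares cover genes of every level and were not matched to the lists, whose genes were brighter. Below the middle of the WT array by level lay 20.1% of list genes and 50.9% of genes with 1 symbol. The median PPAR alpha target stood at percentile 90.8 by WT level. Promoters and gene positions came from RefSeq (GRCm38.p6), which held 19 of the 28 called genes.

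The main model did not pair the samples by the labels' replicate numbers. Deviations of same-numbered WT and GlycoLo arrays correlated at 0.117, 0.055 and 0.007, and those of differently numbered arrays at -0.103 to 0.052. Each GlycoLo array correlated most with the WT array of its own number, so these values do not settle whether the numbers mark pairs. On data simulated for GlycoLo against WT over 45037 probe sets, the test recovered 60% of 50 changes of 0.5 on the log2 scale and 100% of 50 at each of 1, 2 and 4, with 14 of 194 calls false. The simulated noise was independent between arrays and probe sets, and the hearts gave 38 calls. These shares therefore need not hold for the hearts, where Hspa1b (-2.39) and Ciart (-1.34) were not called. Figures used Python 3.11.15 with pandas 2.3.3 and matplotlib 3.10.9.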

Additional observations from a re-analysis of the deposited data

How the results depend on the processing

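For GlycoLo against WT the 38 calls (7 higher, 31 lower) became 15 (4 and 11) with only the 6 arrays compared, 62 (16 and 46) with the dimmest 40% of probe sets left out, 48 (12 and 36) with a common median, 134 (54 and 80) with an offset of 50 added before the log, 256 (78 and 178) with a trended and robust variance, 41 (13 and 28) over the probe sets of the other deposited table, 96 (27 and 69) at an adjusted p under 0.1 and 23 (5 and 18) at 1.5-fold or more; cyclic loess and array weights gave 39 each. The trended and robust variance kept all 38 calls, and the 6 arrays 13 of them. Without 1 array at a time the counts were 13 to 37 (3 to 7 higher, 8 to 31 lower). With the replicate number as a block, 17 were called (5 higher, 12 lower), 15 of them among the 38. For GlycoLo against GlycoHi the 771 calls (340 higher, 431 lower) became 444 (177 and 267) with only the 6 arrays, 1271 (570 and 701) with the offset, 1547 (738 and 809) with the trended and robust variance, 1274 (583 and 691) at an adjusted p under 0.1, 313 (116 and 197) at 1.5-fold or more, 627 with the replicate block and 375 to 651 (138 to 277 higher, 237 to 374 lower) without 1 array at a time. Apart from the smaller numbers of arrays or probe sets and the thresholds themselves, the cause was not tested. Of the 75 genes with values under each alternative, the sign turned for Nppa without WT replicate 2 (0.0041; range without 1 array -0.1969 to 0.0041) and for Pfkfb4 without WT replicate 2 (0.0796) or GlycoLo replicate 1 (0.1216; range -0.0904 to 0.1216). Depth has no meaning on an array: 3 hearts per group set the precision, Pfkfb1 and Myh7 lie near the top of the scale, and levels near 3 lie close to its bottom.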
